A study of Mus musculus with 6 samples.

Results

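The secernins are a family of 3 genes in the mouse, Scrn1, Scrn2 and Scrn3, and all 3 were found by symbol among the 47062 Ensembl genes of the deposited table. RNA was sequenced from striatum, dissected with the adjoining subventricular zone, of mice at postnatal day 0. The 3 mutant libraries carried Drd2-Cre together with 2 floxed alleles of Sp9, and the 3 control libraries were made from littermates that had the same floxed alleles but no Cre, all on a mixed C57BL/6J, 129S6 and CD1 background. Sp9 encodes a zinc finger transcription factor, and Drd2-Cre directs recombination to cells in which regulatory DNA of the dopamine D2 receptor gene is active, among them the striatopallidal projection neurons. No library carried Drd2-Cre without floxed Sp9, so the Cre transgene and the loss of Sp9 cannot be told apart, and the labels do not say whether a library came from 1 animal or from several. The differences below are therefore set against the spread between libraries, which may in part be technical.

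By sequence, secernins resemble dipeptidases of the C69 peptidase family, whose members use an N-terminal nucleophile. Secernin 1 was first described as a cytosolic protein that increases regulated exocytosis in permeabilised mast cells, and in rat neurons it associates with VAP proteins of the endoplasmic reticulum. Human SCRN3 carries a glyoxylyl group at its N-terminus, an unusual electrophilic modification, and much less is known of Scrn2. The family was selected on the measured difference between mutant and control: Scrn3 was one of 6 genes that were higher past an adjusted p of 0.05 with limma, which is 0.036% of the 16666 genes tested. The values of all 3 genes in that comparison are therefore given as a description, without a test.

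The genes lie on separate chromosomes of GRCm38, by the GENCODE M21 annotation. Scrn1 (ENSMUSG00000019124) spans chr6:54501173-54566489 on the minus strand, Scrn2 (ENSMUSG00000020877) chr11:97029938-97033958 on the plus strand and Scrn3 (ENSMUSG00000008226) chr2:73312601-73337818 on the plus strand. Scrn3 and Scrn2 each have an Sp gene as a close neighbour: Sp9 ends 27.9 kb upstream of Scrn3, and Sp6 ends 5.20 kb upstream of Scrn2, with Sp2 47.0 kb away on the same side. None of Sp1 to Sp9 lies on the chromosome of Scrn1. Scrn3 starts head to head with Cir1, which encodes a corepressor that binds the Notch effector RBPJ and is read from the opposite strand.

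The sequence between the start sites of Cir1 and Scrn3 is shown because these neighbours start so close together, and that of Scrn1 for comparison. Both come from the RefSeq promoter table on GRCm38.p6, which matched 2 of the 3 secernin genes. Each is printed 5′ to 3′ on the strand of its secernin gene, and capitals mark GGGCGG, the core of the GC box that zinc fingers of the Sp family are known to bind, or its complement CCGCCC. For Scrn3 the stretch is the 59 bases between both RefSeq start sites, chr2:73312593-73312651. Most of them lie in the first exons of both genes in GENCODE, where Cir1 and Scrn3 overlap. For Scrn1 it is 115 bases of the table's window that lie upstream of every annotated transcript, chr6:54566518-54566632. This stretch does not reach down to the GENCODE start of Scrn1, and it holds 1 of the 2 motifs of that window.
Scrn3: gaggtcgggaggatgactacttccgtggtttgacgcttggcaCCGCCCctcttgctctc
Scrn1: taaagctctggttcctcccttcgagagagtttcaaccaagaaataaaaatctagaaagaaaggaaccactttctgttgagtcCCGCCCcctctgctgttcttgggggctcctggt

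Over the whole 300-base window of the table, 250 bases before the start and the rest after it, Scrn3 held this motif 1 time and Scrn1 2 times, counted on both strands. The motif is common, since 35.7% of all 32851 promoter windows held it at least 1 time and 19.5% at least 2 times. A match describes the letters only and does not show that a factor was bound.

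Levels are given in FPKM, the authors' deposited measure of fragments divided by transcript length and by the mapped fragments of the library, so that genes of unequal length can be set side by side. The libraries held 16236995 to 19457753 fragments in genes, as estimated from the spacing of the deposited count columns. All 3 members passed the filter, a mean of at least 0.5 FPKM.

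Scrn3 was the member that differed between the groups. It had 12.6, 12.1 and 10.1 FPKM in mutant replicates 1 to 3, against 2.20, 2.98 and 2.47 FPKM in control replicates 1 to 3. Every mutant library was above every control library, as it was for 5.33% of all tested genes. The means were 11.6 ± 1.30 FPKM in mutants and 2.55 ± 0.398 FPKM in controls (SD, n = 3 each), a ratio of 4.55. The log2 difference, taken on FPKM with a pseudocount of 0.5 added, was 1.99 ± 0.13 (SE). Among 13002 tested protein-coding genes whose scaled counts averaged 10 or more, this was the highest log2 difference with that pseudocount. Among all 16666 tested genes, which include short and predicted genes with few fragments, it ranked 201. These places can change with the pseudocount. Sult2b1, at a log2 difference of 1.90, had means of 3.39 FPKM in mutants and 0.542 FPKM in controls, a larger ratio than that of Scrn3. Ranks under other pseudocounts were not computed.

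The FPKM of Scrn3 rested on 387 to 524 estimated fragments per mutant library and on 76 to 109 per control library. In the deposited count columns, in which the authors' fragment estimates carry a factor of each library's own and which are called scaled counts here, Scrn3 had 512, 463 and 446 in mutant replicates 1 to 3 and 90.6, 113 and 86.8 in control replicates 1 to 3. The ratio of the group means was 4.90 on this scale.

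Scrn1, the most abundant secernin, had 55.1, 66.9 and 56.8 FPKM in mutant replicates 1 to 3 and 54.5, 66.6 and 57.5 FPKM in control replicates 1 to 3. The groups cover almost the same range, and in each of them 1 library was near 67 FPKM and the other two were under 58. The means were 59.6 ± 6.40 FPKM in mutants and 59.5 ± 6.33 FPKM in controls (SD, n = 3 each), with a log2 difference of 0.0014 ± 0.11 (SE).

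Scrn2 had 3.27, 4.08 and 3.57 FPKM in mutant replicates 1 to 3 and 4.45, 4.13 and 3.85 FPKM in control replicates 1 to 3. The groups overlapped in FPKM, since mutant replicate 2 was above control replicate 3. On scaled counts they did not: Scrn2 had 79.1, 85.3 and 88.7 in mutant replicates 1 to 3 and 102, 96.0 and 91.4 in control replicates 1 to 3. On that scale every mutant library lay below every control library for 6.49% of the 16125 genes that averaged 10 or more. The FPKM means were 3.64 ± 0.410 FPKM in mutants and 4.14 ± 0.296 FPKM in controls (SD, n = 3 each), and the log2 difference was -0.17 ± 0.11 (SE). The median log2 difference over all 16666 tested genes was -0.00016.

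**Figure D1:**
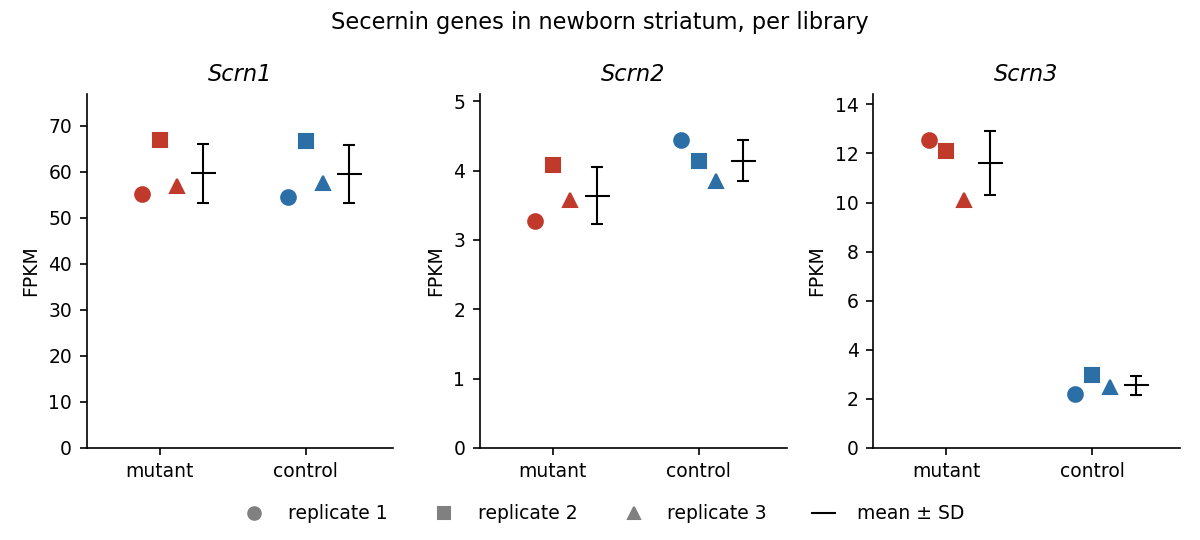
Each panel plots the FPKM of 1 secernin gene from 0 upwards, with 1 point per library, mutants left of controls and the mean ± SD beside each group (n = 3). Scrn3 lies at 10.1 to 12.6 FPKM in mutants and 2.20 to 2.98 FPKM in controls, while the groups of Scrn1 and Scrn2 overlap in FPKM.

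**Figure D2:**
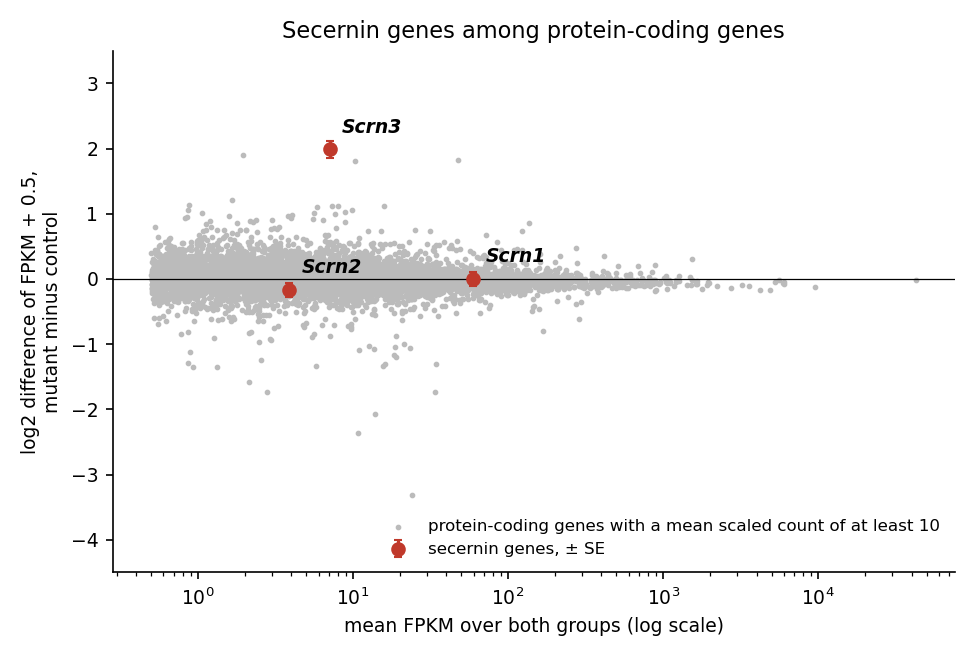
Each grey point is 1 of 13002 tested protein-coding genes whose scaled counts averaged 10 or more; the horizontal axis is the mean FPKM over both groups on a log scale and the vertical axis the log2 difference of FPKM with 0.5 added, mutant minus control. The secernin genes are in red with their SE: Scrn3 at 1.99 is the highest point, and Scrn1 and Scrn2 lie within the cloud.

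The order of the family changed with the group. In mutants the order was Scrn1, Scrn3, Scrn2, and in controls it was Scrn1, Scrn2, Scrn3. The ratio of Scrn3 to Scrn2 was 3.84, 2.97 and 2.83 in mutant replicates 1 to 3 and 0.494, 0.721 and 0.641 in control replicates 1 to 3, so that Scrn3 was above Scrn2 in every mutant library and below it in every control library. In neither group did the ranges of these neighbours in the order overlap. Scrn1 stayed far above both, with a ratio to Scrn2 of 16.4 ± 0.478 in mutants and 14.4 ± 1.98 in controls (SD, n = 3 each).

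The summed FPKM of the family was 74.8 ± 7.18 in mutants and 66.2 ± 6.65 in controls, with ranges that overlapped. Scrn3 made up 15.5% ± 1.88 of that sum in mutants and 3.84% ± 0.226 in controls (SD, n = 3 each). Set among all tested genes, the mean level of Scrn3 was above 54.4% of genes in mutants and above 26.8% in controls. Scrn1 was above 89.0% of genes in both groups, and Scrn2 was above 31.6% in mutants and 34.5% in controls.

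The spread between replicates of 1 group was of like size in the 3 genes but stood differently to their counting error. For Scrn3 this spread was not free of the selection, since limma sets the difference between groups against it. For Scrn1 the coefficient of variation of FPKM was 10.7% in mutants and 10.6% in controls, whereas counting error alone, at 4401 to 5901 fragments per library, would give about 1.4%. Its SD of log2 values was 0.15 in each group, larger than that of 88.2% of genes of like level in mutants and 82.6% in controls (1406 genes within 0.5 log2 units of its mean level). For Scrn2, with 77 to 97 fragments per library, the coefficient of variation was 11.3% in mutants and 7.15% in controls. Counting error gives 11.0% and 10.5% in these groups. On scaled counts its SD was 4.90 at a mean of 84.4 in mutants and 5.42 at a mean of 96.5 in controls, smaller still relative to the mean. The spread of Scrn2 was thus near or below its counting error, and that of Scrn1 was far above it. Scrn3 had a coefficient of variation of 11.2% in mutants and 15.6% in controls, against a counting error of 4.65% in mutants and 10.5% in controls.

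Because the table gives both a scaled count and an FPKM, their ratio shows by what length each FPKM was divided. This implied length, set on a scale of kilobases with 858 protein-coding genes that have a single annotated transcript, can move between libraries where the estimated mix of transcripts does. Scrn3 has 6 annotated transcripts, of which the longest, with 8 exons, measures 3309 bases, and a shorter coding one with 4 exons measures 1897 bases. The implied length of Scrn3 was 2.50, 2.34 and 2.69 kb in mutant replicates 1 to 3 and 2.52, 2.30 and 2.14 kb in control replicates 1 to 3. The groups overlapped. Over the 6 libraries its coefficient of variation was 7.99%, larger than in 84.8% of 2007 tested genes of like scaled count, whose median was 2.05%.

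Scrn1 had an implied length of 5.48, 5.23 and 5.45 kb in mutant replicates 1 to 3 and of 5.49 kb in each control. Only mutant replicate 2 stood apart, and Scrn2 was also shortest in that library, at 1.28 kb, against 1.40 to 1.52 kb in the other five. The FPKM of both genes was thus divided by a shorter length in mutant replicate 2. On the scaled counts, which carry no length, Scrn1 had 4916, 5723 and 5072 in mutant replicates 1 to 3 and 4893, 5987 and 5169 in control replicates 1 to 3, with groups that overlapped as in FPKM. For Scrn2 the overlap of the groups in FPKM rests on mutant replicate 2, and on scaled counts, given above, that library too was below all controls. Single-transcript genes themselves had implied lengths between 0.66 and 1.27 times their annotated length (the central 90% of genes), so these lengths can be compared between libraries for 1 gene but not read as exact transcript lengths.

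**Figure D3:**
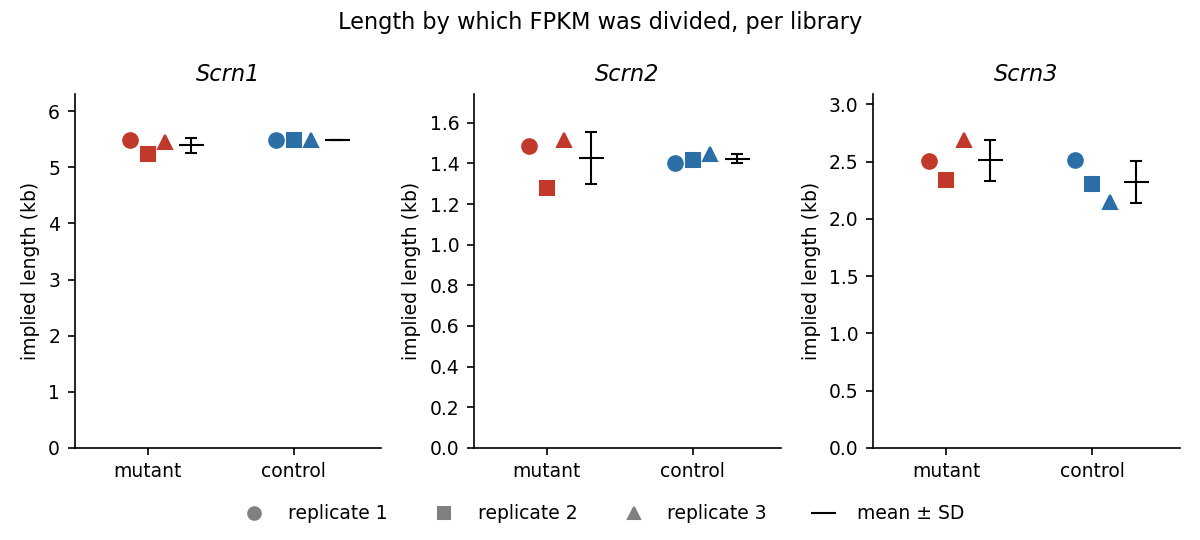
Each panel plots the length, in kb from 0 upwards, by which the FPKM of 1 secernin gene was divided in each library, mutants left of controls, with the mean ± SD beside each group (n = 3). Scrn3 varies from 2.14 to 2.69 kb with groups that overlap, and Scrn1 and Scrn2 are shortest in mutant replicate 2.

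Sharing of reads was checked among the secernin transcripts and with overlapping exons, and not against other similar sequence in the genome. No stretch of 30 bases was common to the transcripts of any pair of secernin genes. Of the exon bases of Scrn3, 101 of 4815 (2.1%) also belong to an exon of Cir1, and of those of Scrn1, 242 of 8613 (2.81%) belong to Wipf3. No exon base of Scrn2 is shared. Whether counting used the strand is not given in the sources used here, so fragments in the shared bases cannot be assigned.

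Around Scrn3, 15 other genes of the table lie within 250 kb, and 5 passed the filter. Sp9, the targeted gene, had 8.37, 7.93 and 9.67 FPKM in mutant replicates 1 to 3 and 20.1, 19.0 and 17.3 FPKM in control replicates 1 to 3. The difference of means, mutant minus control, was -10.2 FPKM for Sp9 and 9.05 FPKM for Scrn3. On scaled counts, which carry no length, the sizes were less alike, and the FPKM of Sp9 and Scrn3 was divided by unlike lengths. The means there were 528 in mutants and 1314 in controls for Sp9, and 473 in mutants and 96.6 in controls for Scrn3. Whether the differences of these neighbours are linked was not tested. The log2 difference of Sp9 was -1.08 ± 0.09 (SE), with an adjusted p of 0.0567 (limma). The implied length of Sp9 was 3.56 to 3.99 kb in mutants and 4.24 to 4.30 kb in controls. How often implied lengths separate the groups among all tested genes was not computed.

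Cir1, which shares its start region with Scrn3, had 14.1, 13.3 and 15.2 FPKM in mutant replicates 1 to 3 and 17.3, 16.3 and 14.7 FPKM in control replicates 1 to 3, with groups that overlapped. Its log2 difference was -0.17 ± 0.08 (SE, adjusted p = 0.869, limma). Gpr155, which encodes a lysosomal membrane protein and begins 74.0 kb beyond the start of Scrn3, had 15.5 ± 2.46 FPKM in mutants and 13.9 ± 2.41 FPKM in controls (SD, n = 3 each; adjusted p = 0.925, limma). Ola1, an Obg-like ATPase gene, had 42.6 ± 1.08 FPKM in mutants and 43.2 ± 1.78 FPKM in controls, and Wipf1, a regulator of actin assembly, had 1.25 ± 0.265 FPKM in mutants and 1.17 ± 0.273 FPKM in controls. Chrna1, a nicotinic receptor subunit gene, lay under the filter in both groups.

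Scrn2 had 30 other genes within 250 kb, 17 of them tested. Its upstream neighbour Sp6 was listed at 0 in all 6 libraries. Sp2 had 4.33 ± 0.200 FPKM in mutants and 4.58 ± 0.175 FPKM in controls (SD, n = 3 each; adjusted p = 0.917, limma). Downstream, Lrrc46 had 1.08 ± 0.180 FPKM in mutants and 1.27 ± 0.286 FPKM in controls, Mrpl10, a mitochondrial ribosomal protein gene, had 14.9 ± 0.972 FPKM in mutants and 14.8 ± 0.384 FPKM in controls, and Osbpl7 had 4.63 ± 0.449 FPKM in mutants and 4.79 ± 0.409 FPKM in controls.

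Scrn1 had 11 other genes within 250 kb, 8 of them tested. Wipf3, which overlaps the end of Scrn1, had 8.92 ± 1.48 FPKM in mutants and 9.02 ± 0.297 FPKM in controls (SD, n = 3 each; adjusted p = 0.989, limma). On the other side, Fkbp14, a folding enzyme gene of the endoplasmic reticulum, had 1.30 ± 0.147 FPKM in mutants and 1.22 ± 0.232 FPKM in controls, and Mturn had 65.2 ± 2.02 FPKM in mutants and 70.1 ± 7.14 FPKM in controls.

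Of the 30 tested neighbours of the 3 genes, 0 passed an adjusted p of 0.05 with limma, as did 0.06% of all tested genes. At an unadjusted p under 0.05 there was 1, Sp9, against 5.65% of all tested genes, and Sp9 was also the 1 neighbour whose groups did not overlap, against 11.4%.

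**Figure D4:**
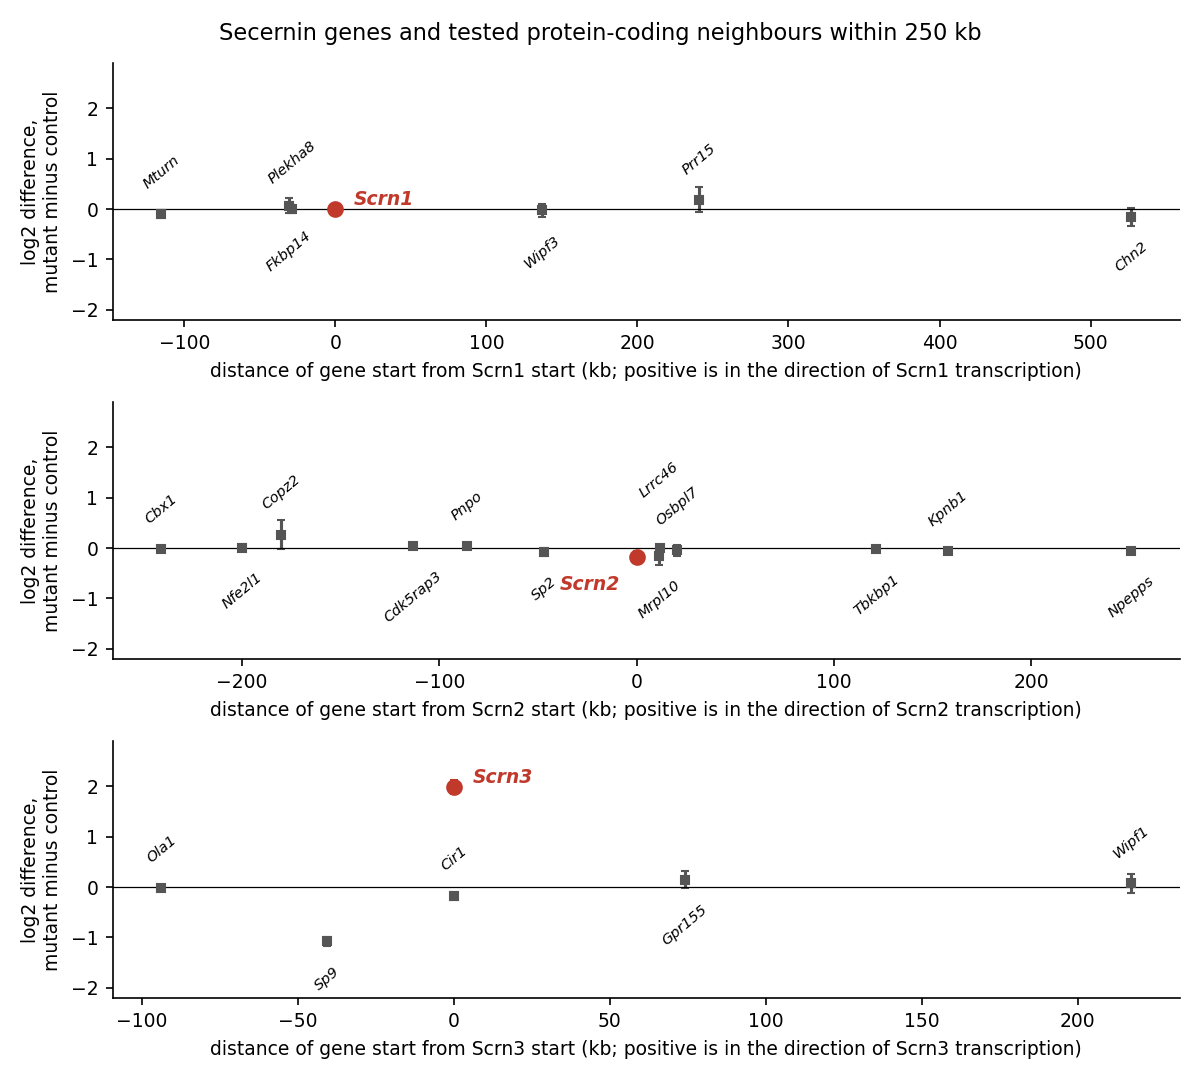
For each secernin gene (red circle) and its tested protein-coding neighbours within 250 kb (grey squares), the vertical axis gives the log2 difference of FPKM with 0.5 added, mutant minus control, ± SE, and the horizontal axis the distance between gene starts in kb, positive in the direction of transcription of the secernin gene. Scrn3 stands at 1.99 with Sp9 at -1.08 and Cir1 at -0.17 beside it, and the plotted neighbours of Scrn1 and Scrn2 lie between -0.16 and 0.27.

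The protein-coding genes with the profile nearest to that of Scrn3 were found by the root mean square distance between centred log2 values over the 6 libraries, among 11731 named genes whose FPKM averaged 1 or more. In order of distance these were Sult2b1 (0.22), Gfra1 (0.45), Dync1i1 (0.48), S100a9 (0.50) and St3gal1 (0.53), against a median distance of 1.01. Sult2b1, a sulfotransferase gene on chromosome 7, had 2.99, 3.13 and 4.04 FPKM in mutant replicates 1 to 3 and 0.402, 0.731 and 0.493 FPKM in control replicates 1 to 3. S100a9, which encodes a calcium-binding protein abundant in neutrophils, had 1.66, 1.63 and 1.89 FPKM in mutant replicates 1 to 3 and 0.714, 0.513 and 0.375 FPKM in control replicates 1 to 3. None of the 5 genes lies on the chromosome of Scrn3. Such genes were bound to be ones that were higher in mutants, so the list describes the profile and tests nothing.

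Genes that share the enzyme class or the cellular roles of secernins were counted in 4 lists, with 76 members tested. With limma, 0 of the 76 passed an adjusted p of 0.05 in either direction, while at an unadjusted p under 0.05 there were 3 higher and 0 lower ones, against 5.65% of all tested genes (0.06% at the adjusted threshold). Groups did not overlap for 8 of the 76, or 10.5%, against 11.4% of all tested genes. The median log2 difference of the 76 was 0.0071.

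Among 16 tested hydrolases with an N-terminal nucleophile, the class that secernins resemble, the median log2 difference was 0.030. Naaa, an amidase of fatty acid ethanolamides, had the smallest p, with 2.32 ± 0.347 FPKM in mutants and 1.74 ± 0.0973 FPKM in controls (SD, n = 3 each; adjusted p = 0.858, limma). Ggt5, a glutamyltransferase gene, had 0.370 ± 0.165 FPKM in mutants and 0.818 ± 0.399 FPKM in controls. Among 13 dipeptidases and related peptidases the median was -0.0049, and Dpp10, an accessory subunit of potassium channels that lacks peptidase activity, had 3.58 ± 0.222 FPKM in mutants and 2.83 ± 0.406 FPKM in controls (adjusted p = 0.858, limma).

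Among 31 tested genes of regulated exocytosis the median log2 difference was 0.0035. Stxbp3, a Munc18 protein gene that acts with syntaxins, had 3.49 ± 0.454 FPKM in mutants and 2.43 ± 0.314 FPKM in controls (SD, n = 3 each; adjusted p = 0.795, limma). The complexin genes had opposite signs, with 71.9 ± 9.09 FPKM in mutants and 57.7 ± 8.06 FPKM in controls for Cplx2, and 38.9 ± 1.83 FPKM in mutants and 43.1 ± 3.23 FPKM in controls for Cplx1; neither passed. Among 16 genes of VAP contact proteins the median was -0.046, and Vapa itself had 115 ± 1.91 FPKM in mutants and 120 ± 4.67 FPKM in controls (adjusted p = 0.888, limma).

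The labelled tissue was checked against 13 lists of cell type markers, in which 1 of 63 genes, Folr1 of the choroid plexus, was listed at 0 in every library. Markers of striatal projection neurons summed to 1660 to 1783 FPKM in mutants and 1776 to 1892 FPKM in controls. Of these 13 genes, 1 (Adora2a) fell past an adjusted p of 0.05 with limma, and 2 were higher and 4 lower with an unadjusted p under 0.05, against 5.65% of all tested genes. For 2 of the 13 lists the groups did not overlap. Meningeal fibroblast markers summed to 3.14 to 3.52 FPKM in mutants and 2.34 to 2.84 FPKM in controls (3 genes). Choroid plexus markers summed to 1.22 to 1.76 FPKM in mutants and 0.321 to 0.985 FPKM in controls (3 genes). Only 2 meningeal genes and 1 choroid plexus gene passed the filter. Groups did not overlap for 11.4% of all tested genes, and no such share was computed for sums over lists. Some lists whose groups overlapped varied widely between libraries. Markers of cortical glutamatergic neurons summed to 8.06 to 53.6 FPKM in mutants and 7.12 to 21.9 FPKM in controls. Those of red blood cells summed to 277 to 567 FPKM in mutants and 208 to 315 FPKM in controls. The part of these lists and of the projection neuron markers in the difference of Scrn3 was not tested. In bulk tissue, more cells that express Scrn3 and more Scrn3 RNA per cell cannot be told apart.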

How the data were processed

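Total RNA of 6 libraries was sequenced, 3 per group. TopHat (version not given) and Cufflinks 2.1.1, with build GRCm38.p4, are named per the submitters' processing notes. For the annotation and for reads that map to several places, the choices made are not given in those sources. The authors deposited 1 table with an FPKM column and a count column per library, per the file headers. The deposited count columns are not whole and were treated as a signal: 97.7 to 97.9% of values of at least 0.01 lay within 0.1 of a whole multiple of 1 step per library, 0.970 to 1.15. No count test was run.

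Symbols from GENCODE M21 matched 46483 of 47062 identifiers. The comparison used limma 3.58.1 (R 4.3.3) on log2(FPKM + 0.5), with a variance trend, all 6 libraries and every gene that averaged at least 0.5 FPKM, with p-values adjusted by the Benjamini-Hochberg method and a threshold of 0.05. The fit was also run on simulated data with the same spread setting for all genes and a fixed length per gene. Spread and implied length vary in the real data, so that run does not test the fit under these conditions. Implied length is scaled count divided by FPKM, with 1 factor per library from single-transcript genes that averaged 100 or more scaled counts.

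The members, gene lists and marker lists were chosen with earlier results of these data known. Named genes are the members, Sp9, overlapping genes and up to 3 named neighbours on each side within 250 kb, up to 3 genes per list by p, and the 5 nearest profiles; not every gene the rule takes is described. The alternatives were other pseudocounts and filters, quantile and median-ratio scaling, scaled counts, a replicate block and each library left out. Correlations between same-numbered libraries were small and do not settle whether the libraries are paired, which the labels do not state.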

Additional observations from a re-analysis of the deposited data

How the results depend on the processing

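The log2 difference of Scrn3 was 1.99 as reported and 2.29 on scaled counts with 1 added. It was 2.15 and 1.83 with pseudocounts of 0.1 and 1, and 1.91 to 2.09 with 1 library left out. Only the value on scaled counts moved by more than the spread of Scrn3 between replicates. The positive sign was bound to hold, since the family was chosen on this difference and every mutant library was above every control library. Scrn1 stayed between -0.084 and 0.085 and Scrn2 between -0.24 and -0.10 with 1 library left out, and neither log2 difference moved by more than its spread between replicates under any alternative. The limma count past an adjusted p of 0.05 was 10 genes as reported, 23 on scaled counts (3 of them among the 10) and 12 to 23 with 1 library left out. The count was 18 without mutant replicate 1 or mutant replicate 2, 23 without mutant replicate 3, 19 without control replicate 1 and 20 without control replicate 3; the cause was not tested. With the replicate number as a block it was 5, all among the 10. In this balanced layout the block cannot change the log2 differences of the 3 genes, only their SE. The SE went from 0.106 to 0.035 for Scrn1, from 0.107 to 0.119 for Scrn2 and from 0.133 to 0.128 for Scrn3. Same-numbered libraries of the 2 groups had correlations of their deviations from the group means of 0.0025, 0.037 and 0.043. Libraries with different numbers had correlations of -0.068 to 0.033. These small values neither show nor exclude that the numbers pair the libraries. Depth limits Scrn2, at 77 to 97 fragments per library, and Scrn3 in controls, at 76 to 109.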
